A study of Mus musculus with 16 samples.

Results

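The FOXO transcription factors and the subunits of the AMP-activated protein kinase (AMPK) were described in stem and progenitor cells of mice with low PU.1. The genes were chosen by symbol and comprise *Foxo1*, *Foxo3* and *Foxo4*, the AMPK subunit genes *Prkaa1*, *Prkaa2*, *Prkab1*, *Prkab2*, *Prkag1* and *Prkag2*, and *Stk11*, which encodes LKB1, the main kinase that activates AMPK. These are 10 of the 54347 genes in the deposited table. Bulk RNA was sequenced from sorted bone marrow cells of mice that lack the upstream regulatory element (URE) of the PU.1 gene *Spi1* (UREΔ, labelled URE) and of their wild-type (WT) littermates, all on the C57BL/6 background, preleukemic and 8 to 12 weeks old. LSKs were sorted as lineage-negative Sca-1+ c-Kit+ cells, the compartment of stem cells and multipotent progenitors, and GMPs (granulocyte-monocyte progenitors) as lineage-negative Sca-1- c-Kit+ Cd16/32+ cells. Each of the 4 groups, UREΔ LSK, WT LSK, UREΔ GMP and WT GMP, holds 4 mice, so that there are 16 libraries. Whether the LSKs and GMPs of a genotype came from the same mice is not stated in the sources used here. The deletion is present in every cell of the UREΔ mice and not in blood cells alone, and every sample was enriched for c-Kit+ cells before the sort.

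FOXO proteins are forkhead transcription factors that AKT, acting downstream of PI3K, phosphorylates and keeps out of the nucleus, and they are known for holding hematopoietic stem cells in quiescence and for protecting them from oxidative stress. AMPK is a complex of a catalytic α subunit, a scaffolding β subunit and a γ subunit that binds AMP, ADP and ATP. It is activated when energy is low, through phosphorylation of the α subunit by LKB1 or CaMKK2, and it slows lipid and protein synthesis and promotes autophagy, in part through ULK1 and FOXO3.

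Total counts ranged from 20028302 to 29128858 per library. *Spi1* had 1.13 to 4.44 CPM (counts-per-million, scaled by the TMM method of edgeR) in UREΔ LSKs against 69.5 to 165 CPM in WT LSKs, and 15.6 to 28.6 CPM in UREΔ GMPs against 84.7 to 181 CPM in WT GMPs, so that every library matched its genotype label. *Ly6a*, which encodes Sca-1, had 35.1 to 122 CPM in LSKs and 0.563 to 2.88 CPM in GMPs, and *Fcgr3*, which encodes CD16, 8.06 to 23.2 CPM in LSKs and 228 to 1327 CPM in GMPs. Y-linked transcripts were expressed in UREΔ replicate 1 and WT replicates 1, 2 and 3 and *Xist* in the others, in LSKs and GMPs alike, so that the genotypes have the same sex only in replicates 1 and 4. Libraries with the same replicate number deviated from their group means together, with a correlation across genes of at least 0.237 in each comparison. Different numbers within 1 and 4 or within 2 and 3 also correlated, with means of 0.215 to 0.262. Numbers from different sets had mean correlations of −0.395 to −0.318. The own number gave the highest correlation for 6 of 8 libraries between the genotypes in GMPs and for 7 of 8 in LSKs. Each comparison was therefore also fitted with a term for the replicate number (the replicate block), which is given where it changed a call. Genes count as called where the quasi-likelihood test of edgeR passed 0.05 after Benjamini-Hochberg adjustment over all genes tested (adjusted p) and the levels differed by more than 1.5-fold. SE is the standard error of a log2 fold change. In sorted bulk samples, fewer cells of a type and less RNA per cell cannot be told apart. The 4 comparisons share libraries, since each group enters one genotype and one cell type comparison.

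All 10 genes passed the filter on low counts in all 4 comparisons. Per kb of exon, *Prkag1* was the highest of them in each group, with 43.1 ± 3.65 CPM per kb (SD, n = 4) in WT LSKs, 44.7 ± 7.71 in UREΔ LSKs, 58.3 ± 4.75 in WT GMPs and 56.7 ± 4.39 in UREΔ GMPs. It encodes γ1, and *Prkab1*, which encodes β1, came next in each group with group means from 21.1 to 32.7 CPM per kb. The ranges of these neighbours overlapped in UREΔ LSKs and not in the other groups. In LSKs *Prkag2*, *Foxo3* and *Prkaa1* followed, with overlap between *Prkag2* and *Foxo3* and between *Foxo3* and *Prkaa1* in both genotypes. In WT LSKs their means were 15.4, 12.2 and 11.3 CPM per kb, and in UREΔ LSKs 23.7, 20.6 and 11.7 CPM per kb. In GMPs *Prkaa1* came next after *Prkab1*, with 11.0 CPM per kb in WT and 13.8 CPM per kb in UREΔ, ahead of *Foxo3* with 6.26 CPM per kb in both. The ranges of *Prkab1* and *Prkaa1* overlapped in both GMP groups, and those of *Prkaa1* and *Foxo3* in WT GMPs. This order depends on the length used. Per kb of the longest transcript, an alternative chosen after the data were seen, *Prkag2* had 29.9 CPM per kb in WT and 46.1 in UREΔ LSKs and overlapped with *Prkab1*, and in GMPs its mean came before that of *Foxo3*, with 8.08 and 6.92 CPM per kb in WT and 8.21 and 6.92 in UREΔ, with overlap. *Stk11* lay between 2.97 and 4.601 CPM per kb, and *Prkab2*, *Foxo1*, *Foxo4* and *Prkaa2* were at or below 1.29 CPM per kb in all groups. The ranges of *Foxo1*, *Prkaa2* and *Foxo4*, the lowest 3 genes in LSKs, overlapped from neighbour to neighbour. *Foxo6*, the fourth FOXO gene, had 0 counts in all 16 libraries, which allows up to 3 counts or 0.0961 to 0.169 CPM per library. *Prkag3*, which encodes the γ3 subunit of skeletal muscle, had 0 counts in all UREΔ libraries and at most 4 counts in a WT library. Libraries were unstranded, and exons of *Prkag1* share 43.7% of their bases with the antisense gene *B130046B21Rik*, which had 6 to 29 counts per library beside 1761 to 3439 counts of *Prkag1*.

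**Figure D1:**
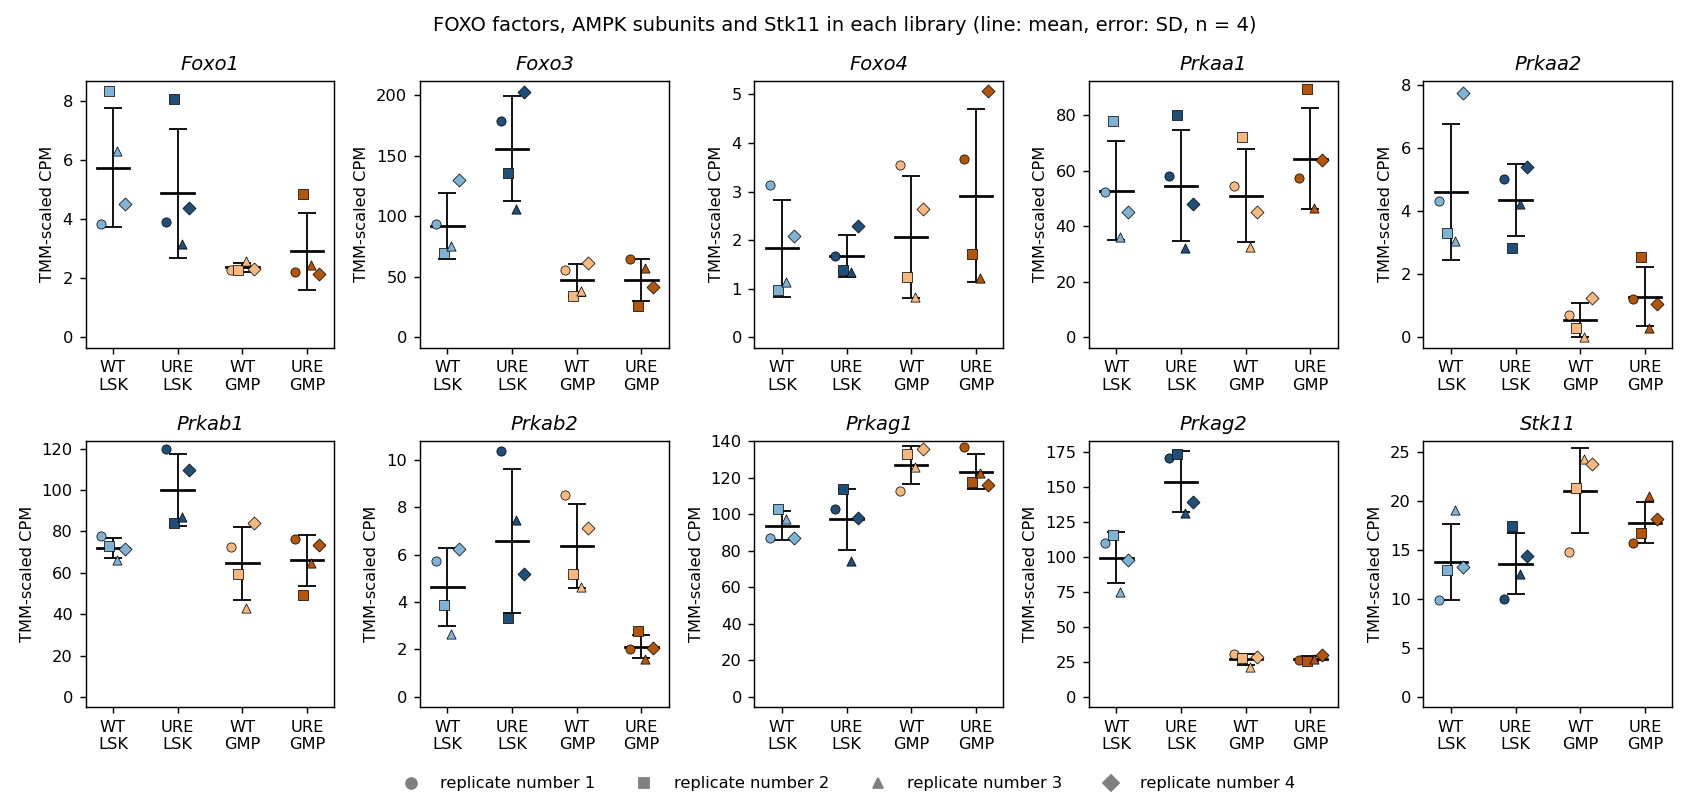
TMM-scaled CPM (linear axes) of the 10 genes in each of the 16 libraries, with the mean and SD of each group (n = 4) and the replicate number as symbol. *Prkag2*, *Foxo3* and *Prkaa2* are lower in GMPs than in LSKs of both genotypes, and *Prkab2* is low in UREΔ GMPs, at 1.59 to 2.77 CPM.

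The comparison of UREΔ with WT LSKs asked which of the genes differ in stem and progenitor cells when PU.1 is low. The largest differences were those of *Foxo3*, *Prkab2* and *Prkag2*, and none was called. With edgeR, 0 of the 10 genes were called, where 6.14% of the 15154 genes tested were called, and DESeq2 also called 0. Of the 10 genes, 3 had an unadjusted p under 0.05 (*Foxo3*, *Prkab1* and *Prkag2*). The share of all genes under this limit is not given, here or beside later counts of unadjusted p. With the replicate block, *Foxo3* and *Prkag2* were called higher in UREΔ LSKs, beside 9.46% of all genes in either direction and 3.83% called higher. The median log2 fold change was 0.02 over the 10 genes and 0.00 over all genes tested. Summed levels of markers of other cell types were 115 to 197 CPM in UREΔ and 23.4 to 44.5 CPM in WT LSKs for 5 mast cell and basophil markers, 24.5 to 34.85 and 58.0 to 82.5 CPM for 5 B cell markers, 66.0 to 215 and 296 to 662 CPM for 6 early lymphoid markers, and 178 to 357 and 35.6 to 179 CPM for 6 maturing neutrophil markers. *Cpa3* carried most of the mast cell and basophil sum, while *Prss34* averaged 3.08 CPM in UREΔ and 5.84 CPM in WT and *Ms4a2* 0.264 and 1.80 CPM. Of the B cell markers, 4 averaged under 1 CPM in both groups, and of the early lymphoid markers 4 in UREΔ and 1 in WT LSKs. The sum of 5 megakaryocyte markers was 54.7 to 683 CPM in UREΔ and 52.1 to 75.4 CPM in WT LSKs. Of these, *Itga2b* had 49.5 to 233 CPM in UREΔ and 26.2 to 48.4 CPM in WT, and *Ppbp* reached 355 CPM in a UREΔ library. *Gp9* averaged 7.02 CPM in UREΔ and 8.99 CPM in WT. The part of all these markers in the levels of *Foxo3*, *Prkab1* and *Prkag2* was not tested.

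*Prkag2*, which encodes γ2, lies on the minus strand at chr5:24862744-25100642 (GRCm38). It had 171, 174, 131 and 139 CPM in replicates 1 to 4 of UREΔ LSKs and 110.0, 116, 74.6 and 97.5 CPM in those of WT mice. Every UREΔ LSK library was above every WT LSK library, and the lowest library of each genotype was replicate 3. Its log2 fold change was 0.60 (SE 0.18, adjusted p = 0.0971, edgeR), 0.61 with the replicate block (adjusted p = 0.0121, the same test) and 0.63 in a fit of all 16 libraries (adjusted p = 0.0305, the same test). *Prkag2* was not called with DESeq2 (0.63, adjusted p = 0.0716) or with RLE size factors (adjusted p = 0.0887, edgeR). Nor was it called without a filter on low counts (adjusted p = 0.188) or with a covariate for Y-linked expression (adjusted p = 0.208, both edgeR). Replicates 1 and 4 alone gave 0.55 (adjusted p = 0.124), and replicates 2 and 3 alone gave 0.66 (adjusted p = 0.536, both edgeR). Two-sided exact permutation of the 8 libraries gave p = 0.0286, the smallest p that 4 against 4 allow. Antisense transcripts share exonic bases with *Prkag2* (12.3% with *Prkag2os2* and 2.19% with *Prkag2os1*) and had at most 28 counts per library beside 435 to 5242 counts of *Prkag2*.

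*Foxo3*, the FOXO gene with the highest level per kb here, lies on the minus strand at chr10:42181841-42276755. It had 179, 136, 106 and 203 CPM in replicates 1 to 4 of UREΔ LSKs and 93.6, 69.4, 75.5 and 129.5 CPM in WT LSKs. Each UREΔ library was above the WT library of the same number, while UREΔ replicate 3 lay below WT replicate 4. The log2 fold change of 0.73 was called with the replicate block (adjusted p = 0.0117, edgeR) and not without it (adjusted p = 0.175, the same test). With a covariate for Y-linked expression *Foxo3* had 0.64 and was not called (adjusted p = 0.451, edgeR). *Prkab1*, which encodes the β1 subunit, had 120.0, 84.1, 86.8 and 109 CPM in UREΔ LSKs and 77.9, 73.1, 66.2 and 71.5 CPM in WT LSKs. These groups did not overlap, which held for 2 of the 10 genes (*Prkab1* and *Prkag2*) and for 12.6% of all genes tested. Its log2 fold change of 0.44 was not called without the block (adjusted p = 0.213) or with it (adjusted p = 0.0808, both edgeR).

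The other 7 genes had log2 fold changes between −0.27 (*Foxo1*) and 0.48 (*Prkab2*) in LSKs, and their groups overlapped. *Prkaa1*, which encodes the catalytic α1 subunit, had 58.0, 80.0, 32.2 and 47.9 CPM in UREΔ LSKs and 52.2, 77.8, 36.2 and 45.1 CPM in WT LSKs. The replicates of a genotype thus spread over more than the genotypes differed, and the log2 fold change was 0.02 (SE 0.31). *Prkag1* had a log2 fold change of 0.02 (SE 0.17) and *Stk11* of −0.05 (SE 0.28). *Prkaa2*, which encodes α2, had 78 to 192 counts per LSK library and a log2 fold change of −0.10 (SE 0.38). *Foxo4*, an X-linked gene, had 29 to 98 counts per LSK library and a log2 fold change of −0.16 (SE 0.46).

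In GMPs, the genotype comparison called *Prkab2*, which encodes the β2 subunit, lower in UREΔ cells. It was 1 of 10 genes, beside 8.3% of the 13829 genes tested that were called in either direction and 3.63% that were called lower. The gene lies on the plus strand at chr3:97658193-97673812 (GRCm38). *Prkab2* had 2.02, 2.77, 1.59 and 2.08 CPM in replicates 1 to 4 of UREΔ GMPs and 8.52, 5.19, 4.64 and 7.10 CPM in WT GMPs. The highest UREΔ library lay below the lowest WT library, and counts were 31 to 53 per library in UREΔ GMPs and 95 to 197 in WT GMPs. The difference was −1.60 on the log2 scale, a 3.03-fold lower level (SE 0.30, adjusted p = 0.0114, edgeR). It stayed called without any single library (log2 fold changes from −1.76 to −1.42, adjusted p from 0.0146 to 0.0441), and with a covariate for Y-linked expression (−1.67, adjusted p = 0.0439, the same test). Within replicates 1 and 4, where the sexes match, it was −1.94 (adjusted p = 0.0147), and within replicates 2 and 3 it was −1.21 and not called (adjusted p = 0.443, both edgeR). *Prkab2* was the 1 gene of the 10 whose groups did not overlap, as was the case for 14.8% of the genes tested.

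Of 6 markers of maturing neutrophils, *Ngp* and *Lcn2* were called higher in UREΔ GMPs, beside 4.67% of all genes, with a summed level of the 6 genes (*S100a8*, *S100a9*, *Ltf*, *Camp*, *Ngp* and *Lcn2*) of 245 to 1013 CPM in UREΔ and of 47.5 to 146 CPM in WT. With the replicate block 5 of these 6 genes were called higher, beside 9.52% of all genes. None of these 6 genes averaged under 1 CPM in either group. The summed level of 8 GMP markers, led by *Mpo*, was 73887 to 160617 CPM in UREΔ and 55825 to 71310 CPM in WT GMPs. *Mpo* carried most of this sum, while *Ms4a3* of the same list averaged 183 CPM in UREΔ and 636 CPM in WT and *Fcgr2b* 51.8 and 89.2 CPM. The summed level in UREΔ and WT GMPs was 8.19 to 23.6 and 61.3 to 88.8 CPM for 5 B cell markers, 4 of which averaged under 1 CPM in both groups. For 6 early lymphoid markers it was 12.1 to 16.7 and 25.98 to 53.3 CPM, with 3 and 2 of them under 1 CPM. *Dntt* carried most of this sum, while *Igll1* of the same list averaged 1.51 CPM in UREΔ and 1.09 CPM in WT. The part of these differences in the level of *Prkab2* was not tested.

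The promoter sequence of *Prkab2* is shown because it was the 1 gene called between the genotypes in GMPs. The 250 bases before its RefSeq start site (GRCm38.p6, chr3:97657962-97658211, plus strand) are given 5′ to 3′ with the letters TGTGGT, the core of RUNX sites, in capitals, here as their reverse complement ACCACA.
Prkab2: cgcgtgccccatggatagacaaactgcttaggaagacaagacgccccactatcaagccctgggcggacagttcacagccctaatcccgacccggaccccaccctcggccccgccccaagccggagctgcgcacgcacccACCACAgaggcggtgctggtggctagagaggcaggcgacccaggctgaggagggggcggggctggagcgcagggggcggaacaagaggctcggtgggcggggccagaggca
On either strand, TGTGGT was found in 14% of the 32851 promoter windows of this length and in 1 of the 11 windows of the genes described here, which cover 9 of the 10 genes. The PU.1 letters GAGGAAGT (2.44% of all windows) and the forkhead letters GTAAACA (3.17%) were found in 0 of these 11 windows, which says only that these letters are not in them.

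The other 9 genes were not called in GMPs without or with the replicate block (edgeR). Of them, *Prkaa1* and *Foxo4* were higher in the UREΔ library of each of the 4 pairs of the same number, with an adjusted p of 0.143 and 0.315 with the block (edgeR). *Prkaa2* had 1.20, 2.56, 0.307 and 1.07 CPM in UREΔ GMPs and 0.692, 0.291, 0 and 1.24 CPM in WT GMPs, where replicate 3 had 0 counts, which allows up to 3 counts. Its log2 fold change of 1.19 had a standard error of 0.90 (adjusted p = 0.542, edgeR). *Prkag2* had 26.6, 25.8, 27.3 and 29.7 CPM in UREΔ GMPs and 30.5, 27.6, 21.2 and 28.3 CPM in WT GMPs, a log2 fold change of 0.02 (SE 0.18). *Foxo3* had 64.4, 25.8, 57.6 and 41.8 CPM in UREΔ GMPs and 55.9, 34.1, 37.8 and 61.7 CPM in WT GMPs, a log2 fold change of 0.00 (SE 0.32). *Foxo1*, *Foxo4*, *Prkaa1*, *Prkab1*, *Prkag1* and *Stk11* had log2 fold changes between −0.25 and 0.49. The median was 0.02 over the 10 genes and 0.01 over all genes tested.

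**Figure D2:**
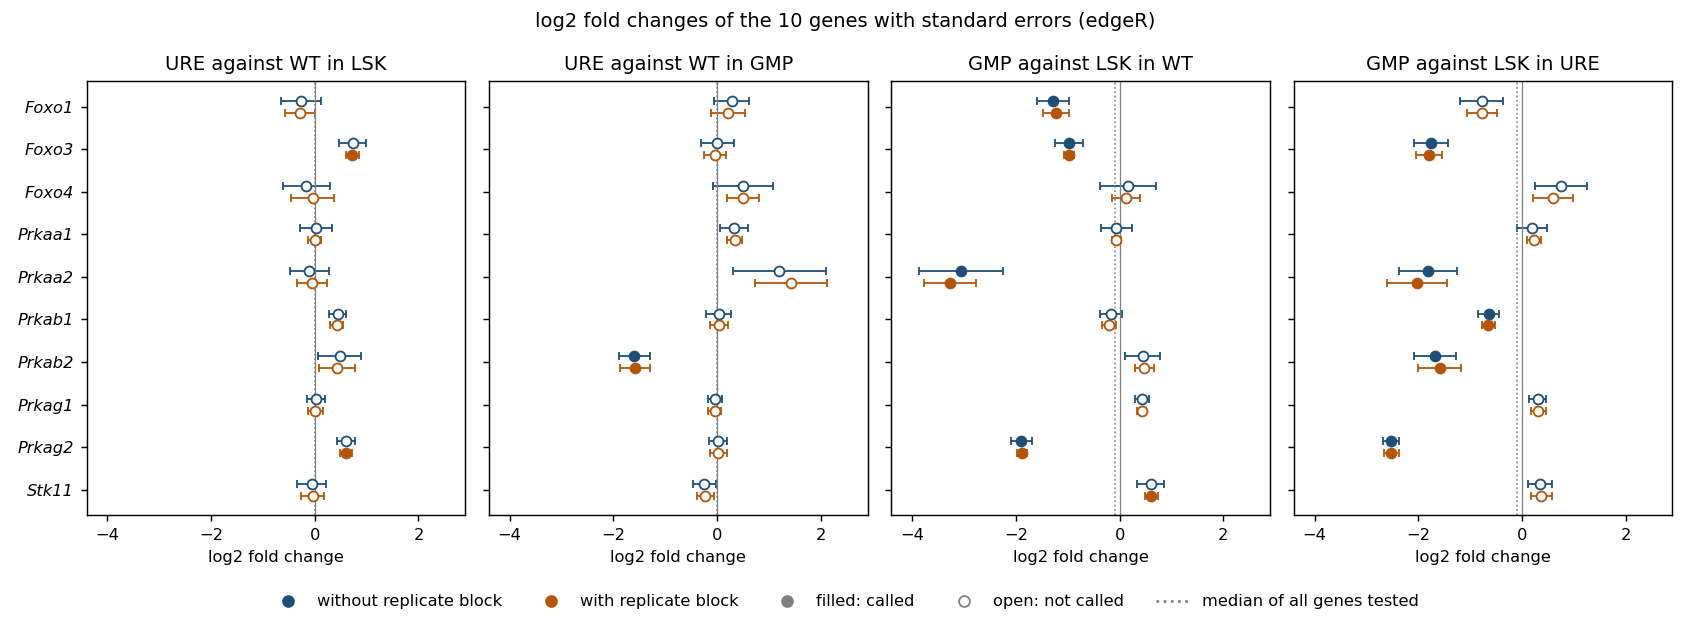
log2 fold changes of the 10 genes (points) with standard errors (bars) in the 4 comparisons from edgeR, without and with the replicate block, where filled points passed the thresholds. In LSKs *Foxo3* and *Prkag2* are filled with the block alone, and in GMPs *Prkab2* is filled in both fits. For GMPs against LSKs of WT mice, *Prkaa2* lies at −3.06 without and −3.27 with the block.

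An interaction term over all 16 libraries tested whether LSKs and GMPs respond to the genotype to a different extent. With edgeR, 0 of the 10 genes passed an adjusted p of 0.05, beside 1.22% of the 15935 genes tested, while 2 genes (*Prkab2* and *Prkag2*) had an unadjusted p under 0.05. DESeq2 called 1 gene, *Prkab2*, and its share over all genes is not given here. The edgeR fit with the replicate block also passed 1 gene, *Prkab2*, beside 6.57% of all genes. *Prkab2* had 10.4, 3.34, 7.45 and 5.18 CPM in UREΔ LSKs and 5.73, 3.89, 2.65 and 6.24 CPM in WT LSKs. Its genotypes overlapped in LSKs and did not overlap in GMPs. The interaction was −2.09 on the log2 scale (SE 0.52, adjusted p = 0.0648, edgeR), −2.05 with the replicate block (adjusted p = 0.0188, the same test) and −2.13 with DESeq2 (adjusted p = 0.00338). Without replicate 2 of the UREΔ LSKs it passed without the block, and with each library left out in turn the adjusted p lay between 0.0388 and 0.141. For *Prkag2* the term was −0.61 and did not pass in either fit (edgeR, adjusted p = 0.288 without and 0.0540 with the block).

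GMPs were compared with LSKs within each genotype to follow the genes along myeloid differentiation. In WT mice *Foxo1*, *Foxo3*, *Prkaa2* and *Prkag2* were called lower in GMPs, 4 of the 10 genes beside 27.3% of the 14767 genes tested called in either direction and 15.8% called lower. In UREΔ mice *Foxo3*, *Prkaa2*, *Prkab1*, *Prkab2* and *Prkag2* were called lower, 5 of the 10 genes beside 21.8% of the 14395 genes tested called in either direction and 12.6% called lower. No gene was called higher without the block in either genotype. With the block, the same genes and *Stk11* were called in WT, 5 of 10 beside 40.9% of all genes, and the same 5 genes in UREΔ, beside 31.9%. The groups did not overlap for 5 genes in WT (31.4% of all genes tested) and for 6 genes in UREΔ (26.6%). The median log2 fold change over the 10 genes was −0.11 in WT and −0.71 in UREΔ, beside −0.09 over all genes in both. Summed mast cell and basophil markers were 628 to 1235 CPM in WT and 855 to 2433 CPM in UREΔ GMPs, above the LSK levels given above, and 6 erythroid markers 31.4 to 45.5 CPM in LSKs and 140 to 425 CPM in GMPs of WT mice and 18.2 to 97.4 and 53.7 to 468 CPM in those of UREΔ mice. *Car1* carried most of the erythroid sum in GMPs, with averages of 197 CPM in WT and 193 CPM in UREΔ mice. *Hbb-bs* went the other way, with 5.11 CPM in LSKs and 2.77 CPM in GMPs of WT mice and 11.7 and 4.18 CPM in UREΔ mice. In UREΔ mice *Hba-a1* also averaged less in GMPs, with 12.1 CPM in LSKs and 3.52 CPM in GMPs. The part of these markers in the differences between GMPs and LSKs was not tested.

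*Prkag2* fell in both genotypes. From the LSK levels above, 74.6 to 116 CPM in WT and 131 to 174 CPM in UREΔ, it fell to 21.2 to 30.5 CPM in WT GMPs and 25.8 to 29.7 CPM in UREΔ GMPs, so that the genotypes that stood apart in LSKs overlapped in GMPs. Between GMPs and LSKs it differed by −1.90 on the log2 scale in WT, a 3.72-fold lower level (SE 0.20, adjusted p = 0.000228), and −2.53 in UREΔ, a 5.78-fold lower level (SE 0.16, adjusted p = 3.42e-05, both edgeR). Both calls held in every alternative fit that was run. RefSeq lists 3 start sites for *Prkag2*, all on the minus strand of chromosome 5. The 250 bases before each (GRCm38.p6) are shown 5′ to 3′ because the gene had the clearest fall, with CG dinucleotides in capitals, at chr5:25100643-25100892, chr5:24995754-24996003 and chr5:24908510-24908759 in this order.
Prkag2 first start: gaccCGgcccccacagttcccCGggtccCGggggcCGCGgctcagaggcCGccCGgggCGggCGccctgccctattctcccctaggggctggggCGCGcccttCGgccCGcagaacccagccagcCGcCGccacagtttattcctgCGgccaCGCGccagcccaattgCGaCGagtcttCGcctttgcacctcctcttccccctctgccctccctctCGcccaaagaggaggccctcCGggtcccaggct
Prkag2 middle start: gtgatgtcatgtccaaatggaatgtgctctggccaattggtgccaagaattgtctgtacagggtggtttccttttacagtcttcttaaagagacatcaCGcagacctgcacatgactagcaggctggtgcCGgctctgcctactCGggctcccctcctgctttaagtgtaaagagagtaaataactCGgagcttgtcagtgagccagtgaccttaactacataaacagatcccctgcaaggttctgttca
Prkag2 last start: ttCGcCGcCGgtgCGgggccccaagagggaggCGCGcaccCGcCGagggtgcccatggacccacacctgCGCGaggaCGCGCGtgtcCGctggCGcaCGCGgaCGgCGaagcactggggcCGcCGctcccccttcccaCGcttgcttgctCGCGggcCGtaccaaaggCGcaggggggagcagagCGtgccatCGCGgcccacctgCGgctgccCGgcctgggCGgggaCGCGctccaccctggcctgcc
The first and last windows hold 23 and 34 CG dinucleotides and the middle one holds 4. Their ratios of observed to expected CG were 0.723, 0.913 and 0.273 in this order, beside a median of 0.373 over all 32851 windows. The gene counts do not separate the transcripts of these starts. The windows of the other 8 genes that have one had ratios between 0.602 (*Prkab2*) and 1.09 (*Stk11*), and so lay above that median.

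*Foxo3* fell to 34.1 to 61.7 CPM in WT GMPs and 25.8 to 64.4 CPM in UREΔ GMPs, without overlap with LSKs of the same genotype. Its log2 fold change was −0.97 in WT (SE 0.27, adjusted p = 0.0246) and −1.75 in UREΔ (SE 0.32, adjusted p = 0.00461, both edgeR). The WT call was lost without replicate 2 or 3 of the GMPs or replicate 1 or 4 of the LSKs, with log2 fold changes from −1.11 to −0.76 and an adjusted p of up to 0.0722 over the libraries left out. The UREΔ call was lost within replicates 2 and 3 (adjusted p = 0.0750, edgeR). The difference between the genotypes in this fall was −0.76 (SE 0.43) and did not pass the test (edgeR, adjusted p = 0.549 without and 0.144 with the block).

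*Prkaa2* (chr4:105029874-105109890, minus strand) had 4.32, 3.32, 3.04 and 7.73 CPM in WT LSKs and 5.03, 2.81, 4.21 and 5.39 CPM in UREΔ LSKs, above every GMP library of the same genotype. It differed by −3.06 on the log2 scale in WT (SE 0.81, adjusted p = 0.0208) and −1.82 in UREΔ (SE 0.56, adjusted p = 0.0444, both edgeR). The WT call was lost without replicate 2 of the GMPs or replicate 4 of the LSKs (adjusted p up to 0.0634). The UREΔ call was lost without any of replicates 1, 3 and 4 of the GMPs or of the LSKs (log2 fold changes from −2.36 to −1.48, adjusted p up to 0.120), and in 5 other alternative fits (adjusted p from 0.0516 to 0.534). WT GMPs had 0 to 24 counts of *Prkaa2* per library and UREΔ GMPs 6 to 49, so that these levels rest on few counts. *Prkaa1*, the other α gene, had log2 fold changes of −0.06 in WT and 0.20 in UREΔ and was not called.

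*Foxo1* had 3.84, 8.35, 6.32 and 4.51 CPM in WT LSKs and 2.29, 2.28, 2.59 and 2.33 CPM in WT GMPs, without overlap. This was a difference of −1.29 on the log2 scale in WT (SE 0.30, adjusted p = 0.0119, edgeR). In UREΔ mice it had 3.90, 8.08, 3.16 and 4.39 CPM in LSKs and 2.22, 4.85, 2.46 and 2.14 CPM in GMPs. These groups overlapped, and the log2 fold change of −0.78 was not called (adjusted p = 0.217, edgeR). The WT call was lost within replicates 1 and 4 (−0.85, adjusted p = 0.139) and within replicates 2 and 3 (−1.51, adjusted p = 0.0540, both edgeR). The difference between the genotypes was 0.53 (SE 0.51) and did not pass the test. Markers of early lymphoid cells, where *Foxo1* is known to act, had a summed level (6 genes) of 296 to 662 CPM in WT LSKs, 66.0 to 215 CPM in UREΔ LSKs, 25.98 to 53.3 CPM in WT GMPs and 12.1 to 16.7 CPM in UREΔ GMPs. *Dntt* carried most of this sum in each group. Between LSKs and GMPs, *Igll1* went the other way. It averaged 0.274 CPM in LSKs and 1.09 CPM in GMPs of WT mice, and 0 and 1.51 CPM in those of UREΔ mice. In UREΔ mice *Rag2* also averaged more in GMPs, with 1.007 CPM in LSKs and 1.97 CPM in GMPs. The other markers of the list averaged less in GMPs. Of these 6 markers, 1 averaged under 1 CPM in WT LSKs and 4 in UREΔ LSKs, and their part in the level of *Foxo1* was not tested.

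The β subunit genes were called in UREΔ mice and not in WT mice. *Prkab2* had a log2 fold change of −1.69 in UREΔ (SE 0.41, adjusted p = 0.0160) and of 0.45 in WT (SE 0.34, adjusted p = 0.367, both edgeR). It was higher in the GMP library than in the LSK library of the same number in 4 of 4 WT pairs and in 0 of 4 UREΔ pairs, and the test of this difference is the interaction given above. The UREΔ call was lost within replicates 2 and 3 (−1.30, adjusted p = 0.377, edgeR), and without replicate 4 of the GMPs or replicate 1 of the LSKs (log2 fold changes from −1.86 to −1.34 over the libraries left out, adjusted p up to 0.0556). *Prkab1* had 76.3, 49.2, 64.9 and 73.4 CPM in UREΔ GMPs, below all UREΔ LSKs. Its log2 fold change of −0.64 in UREΔ (SE 0.20, adjusted p = 0.0485, edgeR) remained called when replicate 2 of the LSKs was left out and not when any of the other 7 libraries was (log2 fold changes from −0.71 to −0.51, adjusted p up to 0.144). Nor was it called by DESeq2 (adjusted p = 0.0607), with RLE size factors (adjusted p = 0.0589), without a filter on low counts (adjusted p = 0.0882) or within replicates 2 and 3 (−0.57, adjusted p = 0.349, all but the first edgeR). In WT mice it was −0.17 (SE 0.21), and the difference between the genotypes of −0.44 did not pass the test (adjusted p = 0.645, edgeR).

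*Prkag1* and *Stk11* had higher mean levels in GMPs. *Prkag1* had 113 to 136 CPM in WT GMPs against 87.0 to 103 CPM in WT LSKs, and 116 to 137 CPM in UREΔ GMPs against 74.1 to 114 CPM in UREΔ LSKs. Neither pair of groups overlapped. Its log2 fold change of 0.43 in WT had an adjusted p of 0.0456 (edgeR) but stayed under the fold threshold, and that of 0.30 in UREΔ did not pass (adjusted p = 0.226, the same test). *Stk11* had 14.8, 21.3, 24.3 and 23.8 CPM in WT GMPs and 9.86, 12.98, 19.2 and 13.2 CPM in WT LSKs. These levels differed by 0.60 on the log2 scale without the block (adjusted p = 0.119) and 0.61 with it, where it was called higher (adjusted p = 0.00443, both edgeR). Without replicate 3 of the WT LSKs it was called without the block too (adjusted p = 0.0461, the same test). In UREΔ it was 0.35 (adjusted p = 0.318, edgeR). Exons of *Stk11* share 5.07% of their bases with *Cbarp* on the other strand, which had 7 to 447 counts per library beside 258 to 529 counts of *Stk11*. *Foxo4* had log2 fold changes of 0.16 in WT and 0.75 in UREΔ, with SEs of 0.54 and 0.49.

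To compare paralogs, each gene's CPM per kb was taken as a percentage of its class. *Prkag2* made up 26.2% ± 3.999 (SD, n = 4) of the γ1 and γ2 transcripts in WT LSKs and 34.8% ± 2.17 in UREΔ LSKs, but 6.69% ± 1.22 in WT GMPs and 6.96% ± 0.737 in UREΔ GMPs. *Prkaa2* made up 5.21% ± 2.80 and 5.02% ± 2.21 of the α transcripts in WT and UREΔ LSKs, and 0.639% ± 0.702 and 1.05% ± 0.525 in WT and UREΔ GMPs. *Prkab2* made up 3.67% ± 1.17 and 3.74% ± 1.38 of the β transcripts in WT and UREΔ LSKs, 5.63% ± 0.860 in WT GMPs and 1.99% ± 0.859 in UREΔ GMPs (SD, n = 4 each). *Foxo3* made up most of the FOXO transcripts in each library, with group means from 83.0% in UREΔ GMPs to 95.01% in UREΔ LSKs. Of 24 exact two-sided permutation tests of these shares, 9 had p = 0.0286, the smallest p that 4 against 4 allow, and 0 passed Benjamini-Hochberg adjustment (adjusted p = 0.0762 for these 9). They include the share of *Prkag2* between the genotypes in LSKs and between GMPs and LSKs in both genotypes, and the share of *Prkab2* between the genotypes in GMPs. The length of the longest transcript in place of all exons gave the same counts of 9 and 0.

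**Figure D3:**
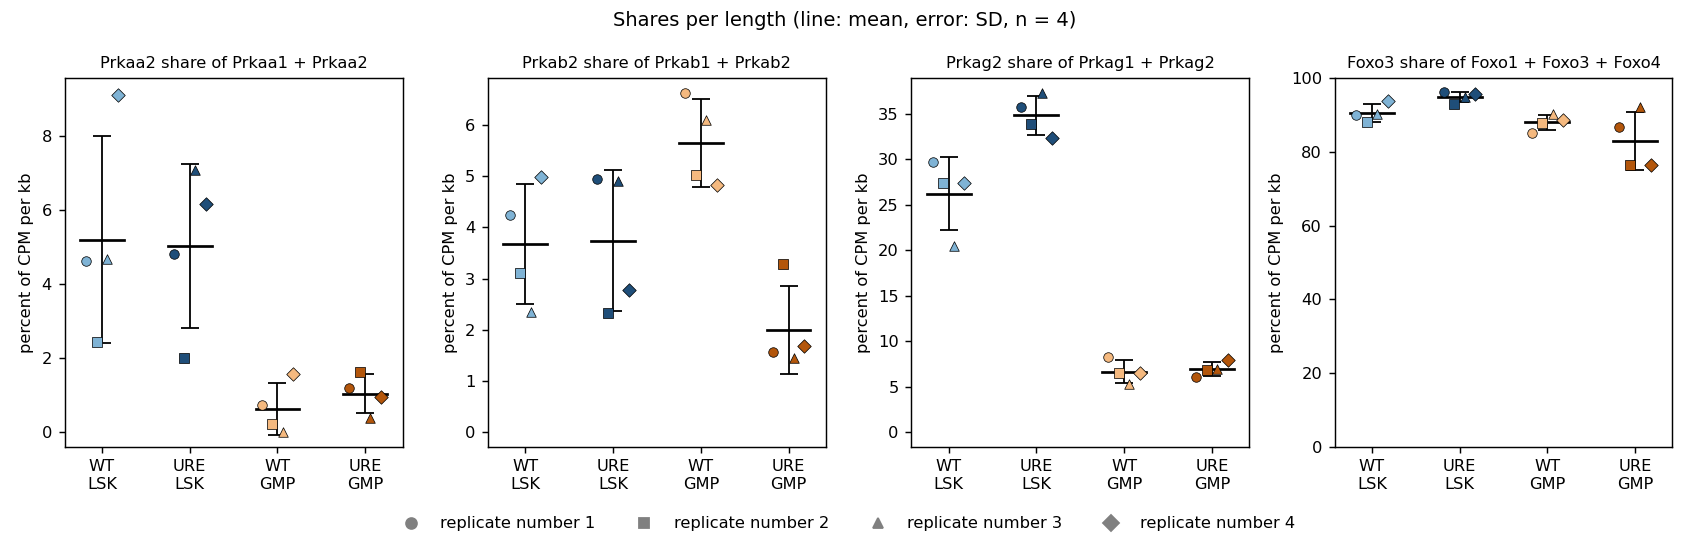
Share of *Prkaa2*, *Prkab2*, *Prkag2* and *Foxo3* in their classes, in percent of TMM-scaled CPM per kb of exon, in each library, with the mean and SD of each group (n = 4). The share of *Prkag2* is between 20.5% and 37.3% in LSKs and between 5.37% and 8.33% in GMPs, and that of *Prkab2* is at most 3.27% in UREΔ GMPs and at least 4.83% in WT GMPs.

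The genes differed in how far their level followed the replicate number, which marks the same number in all 4 groups. *Prkaa1* was highest in replicate 2 and lowest in replicate 3 in 4 of 4 groups, and the number accounted for 95.6% of its variance within groups. For *Foxo4* it accounted for 81.2%, with mean log2 deviations of 0.60 and 0.58 in replicates 1 and 4 and of −0.49 and −0.70 in replicates 2 and 3. For *Foxo1*, *Foxo3*, *Prkab1*, *Prkag2* and *Stk11* it accounted for 58.7% to 66.5%, for *Prkaa2* for 50.1%, for *Prkab2* for 38.7% and for *Prkag1* for 19.98%. The median over 15935 genes was 59.0%. These values describe the 16 libraries, and what the number stands for is not given by the labels.

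**Figure D4:**
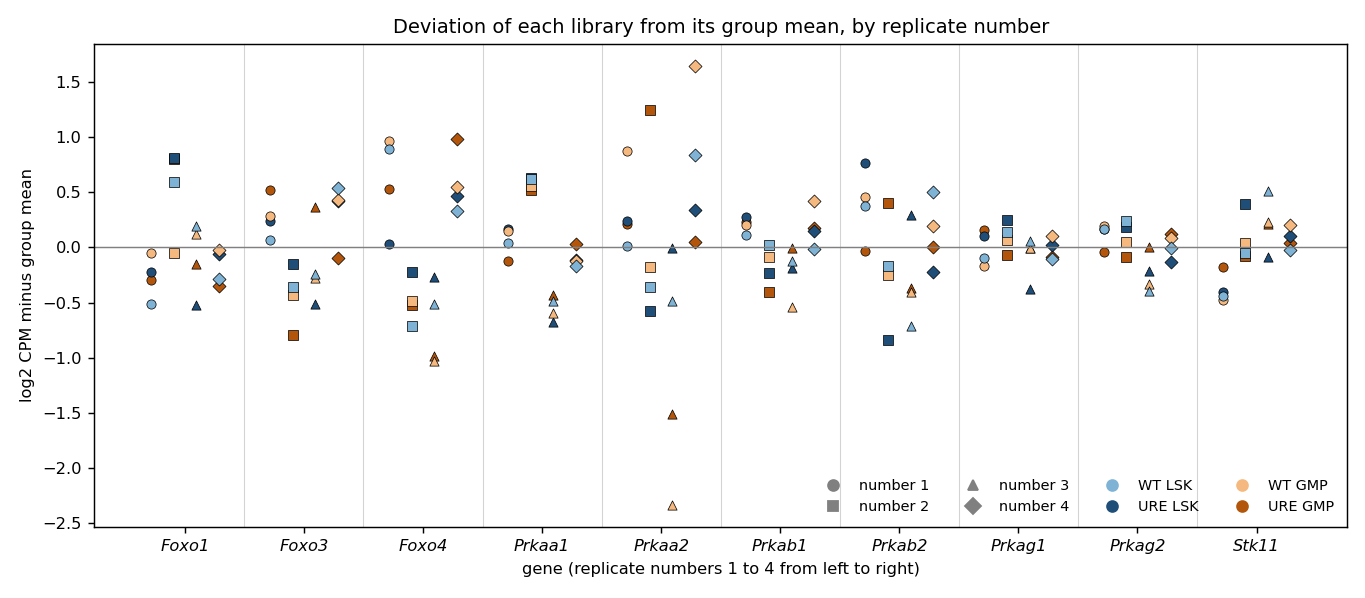
Deviation of log2 CPM from the group mean for each gene and library, with replicate numbers 1 to 4 from left to right within a gene and groups by color. In *Prkaa1* the points of all 4 groups fall together within each number, with mean deviations of 0.58 in replicate 2 and −0.55 in replicate 3, while those of *Prkab2* spread.

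Over the 16 libraries, the genes whose log2 CPM was most like that of a called member were read off among 15935 genes. For *Prkag2* they were *Efna1*, *Pde4b* and *Runx1t1* (Pearson r = 0.98 each), for *Foxo3* *Glul* (0.95), *Gramd1a* and *Sgsm1* (0.94 each), and for *Prkaa2* *Fam169b* (0.95), *Large2* and *Naprt* (0.93 each). For *Foxo1* they were *Trim56* (0.91), *Zfp30* and *Efcab14* (0.89 each), for *Prkab1* *Mob3a* (0.93), *Cavin1* and *Gss* (0.92 each), and for *Prkab2* *Il6st*, *Slc39a6* (0.87 each) and *Limd1* (0.86). The libraries share cell type, genotype and replicate number, so that these values are a description.

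A list of 34 genes known as FOXO targets was followed beside the factors. Of 29 tested in WT mice, 9 were called lower and 1 higher in GMPs than in LSKs, beside 15.8% lower and 11.5% higher over all genes. The median log2 fold change was −0.50, and −0.09 over all genes. Of 28 tested in UREΔ mice, 9 were called lower and 1 higher, beside 12.6% and 9.2% over all genes, with a median of −0.48 and of −0.09 over all genes. Called lower in both genotypes were 7 genes, *Txnip*, *Sesn1*, *Sesn3*, *Tnfsf10*, *S1pr1*, *Fbxo32* and *Pik3ip1*, beside 8.62% of the 13880 genes tested in both, of which *S1pr1* is named for this count after its values were seen. *Txnip*, which encodes an inhibitor of thioredoxin, fell by 2.29 on the log2 scale in WT and by 1.90 in UREΔ (adjusted p = 7.76e-05 and 0.000941, edgeR). *Sesn1*, which encodes a sestrin that senses leucine and restrains mTORC1, fell by 1.33 and 1.86 (adjusted p = 0.000609 and 0.000229, the same test). *Tnfsf10*, which encodes the death ligand TRAIL, fell by 1.88 and 1.75 (adjusted p = 0.00211 and 0.000805, the same test). These sestrin genes, *Txnip* and *S1pr1* have other regulators as well, and the list includes genes of lymphoid cells such as *Il7r*. It also includes *Ccnd1*, which FOXO factors repress and which was called lower in UREΔ GMPs. The counts and medians of the list do not separate induced from repressed targets. With the replicate block, 12 were called lower and 2 higher in WT, and 9 lower and 3 higher in UREΔ. Over all genes the block called 40.9% and 31.9% in either direction.

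**Figure D5:**
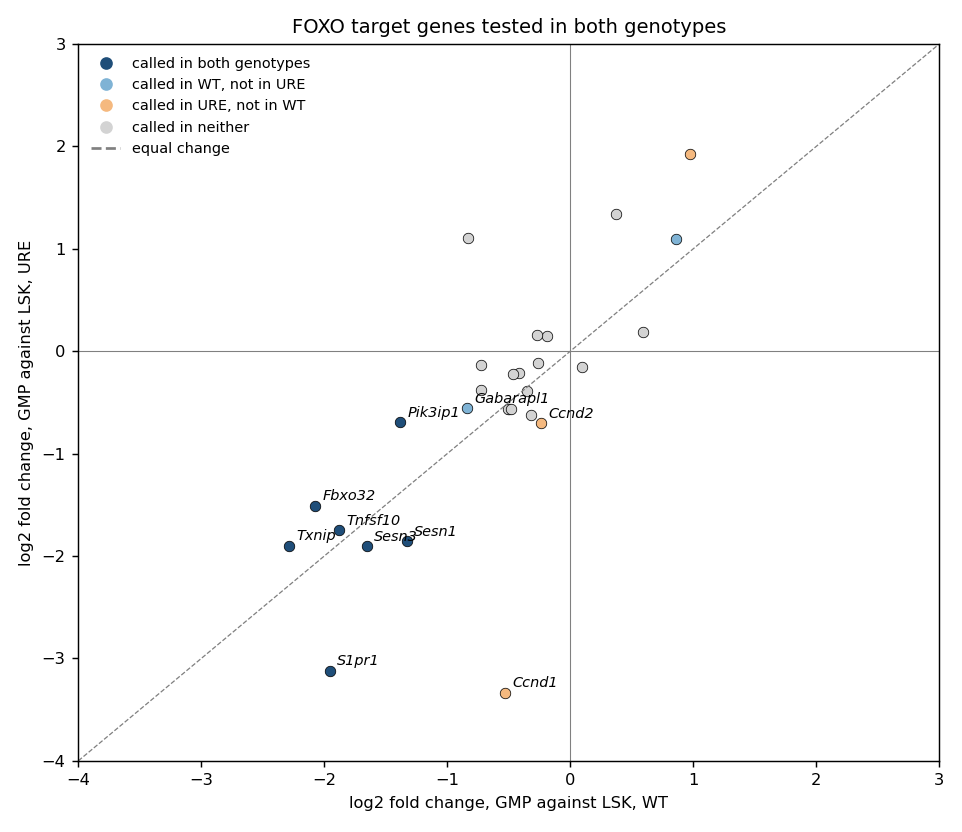
log2 fold changes of GMPs against LSKs in WT (x axis) and UREΔ mice (y axis) for the 28 FOXO target genes tested in both genotypes, by call, with names at genes called lower. The 7 genes called in both lie in the lower left, and *Ccnd1* lies at −0.53 in WT and −3.34 in UREΔ.

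Between the genotypes, FOXO targets were called in both directions. In LSKs, 1 of 29 was called lower and 0 higher, beside 3.76% and 2.38% of all genes. It was *Cat*, which encodes catalase, with 123 CPM in UREΔ and 196 CPM in WT on average (log2 fold change −0.70, adjusted p = 0.0300, edgeR). Its call was lost without any of the UREΔ LSK libraries or without replicate 1, 2 or 4 of the WT LSKs (log2 fold changes from −0.77 to −0.63, adjusted p up to 0.110). With the replicate block, 4 were called lower, beside 5.62% of all genes. In GMPs, 3 of 29 were called higher and 2 lower, beside 4.67% and 3.63% of all genes. With the replicate block these were 4 and 4, beside 9.52% and 6.82% of all genes. *Pik3ip1*, which encodes an inhibitor of PI3K, had 146 CPM in UREΔ and 77.2 CPM in WT GMPs (log2 fold change 0.91, adjusted p = 0.00844), and *Irs2*, which encodes an adaptor of the insulin receptor, 4.29 and 1.70 CPM (1.31, adjusted p = 0.0325). The call of *Irs2* was kept without replicate 3 of the WT GMPs and lost without any of the other 7 libraries (log2 fold changes from 1.08 to 1.42, adjusted p up to 0.0976). *Ccnd1*, which encodes cyclin D1 and is repressed by FOXO factors, had 3.56 CPM in UREΔ and 28.6 CPM in WT GMPs (−3.003, adjusted p = 0.00178, all edgeR). Its genotype effect differed between GMPs and LSKs by −2.77 (SE 0.49, adjusted p = 0.0122 for the interaction, the same test), and it was the 1 gene of all pathway lists that passed that test. *Il7r*, the gene of the interleukin 7 receptor, had 3 counts in all UREΔ GMP libraries together and 91 in WT GMPs. The median log2 fold change of the list was −0.20 in LSKs and 0.02 in GMPs, and 0.00 and 0.01 over all genes.

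Upstream of the FOXO factors, 29 genes of the PI3K-AKT pathway were followed. In LSKs, 3 of 28 were called lower in UREΔ and 0 higher, beside 3.76% and 2.38% of all genes, and with the replicate block 4 were lower and 1 higher, beside 5.62% and 3.83%. *Sgk3*, a kinase related to SGK1 and 1 of these 3, had 83.2 CPM in UREΔ and 144 CPM in WT (log2 fold change −0.82, adjusted p = 0.0262, edgeR). Its call was lost without replicate 1, 3 or 4 of the UREΔ or 1, 2 or 4 of the WT LSKs (log2 fold changes from −0.91 to −0.72, adjusted p up to 0.0940). In GMPs, 2 of 28 were called lower and 1 higher, beside 3.63% and 4.67% of all genes. *Pik3r5* and *Pik3r6*, which encode the regulatory subunits of PI3Kγ, were called lower in UREΔ cells of both kinds. *Pik3r6* had 0 to 4 counts per library in UREΔ LSKs and 17 to 38 in WT LSKs, and 0.326 CPM in UREΔ GMPs against 9.84 CPM in WT GMPs. *Pik3r5* had 0.832 CPM against 6.44 CPM in LSKs and 0.173 CPM against 4.94 CPM in GMPs. In LSKs the call of *Pik3r5* was lost without any of the UREΔ libraries or without WT replicate 1 or 4 (adjusted p up to 0.0658), and that of *Pik3r6* without WT replicate 4 (adjusted p = 0.0510, both edgeR). In GMPs, *Sgk1*, a kinase that like AKT phosphorylates FOXO3, rose from 5.48 CPM in WT to 23.3 CPM in UREΔ (log2 fold change 2.07, adjusted p = 0.00478, edgeR). *Akt1* and *Akt2* were not called in any comparison. Between cell types, edgeR called 1 of 29 higher and 2 lower in WT GMPs, and 4 of 27 lower in UREΔ GMPs. Over all genes, edgeR called 27.3% and 21.8% in either direction. In UREΔ GMPs DESeq2 called 2 genes of the list higher and 5 lower, beside 1906 higher and 2322 lower of the 18711 genes it tested. The 1 called higher in WT was *Pik3r6* (9.84 CPM in GMPs and 1.05 CPM in LSKs, log2 fold change 3.21, adjusted p = 0.000228, edgeR). *Inpp4b*, which encodes a phosphatase of phosphoinositides, fell in GMPs by 1.52 in WT and by 2.86 in UREΔ (adjusted p = 0.00562 and 0.00737, the same test).

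Of 12 enzymes that modify FOXO proteins, 0 were called in LSKs between the genotypes by edgeR or DESeq2 and 0 had an unadjusted p under 0.05. In GMPs 1 of 12 was called lower, beside 3.63% of all genes. It was *Prmt1*, an arginine methyltransferase (log2 fold change −0.63, adjusted p = 0.0333, edgeR), whose call was lost without replicate 1, 2 or 4 of the UREΔ or 2, 3 or 4 of the WT GMPs (adjusted p up to 0.111). Between cell types, 2 of 12 were called higher in WT GMPs (*Prmt1* and *Skp2*) and 1 lower in UREΔ GMPs, beside 27.3% and 21.8% of all genes called in either direction. *Skp2*, a ubiquitin ligase subunit that acts on FOXO1, rose in GMPs of WT mice from 41.4 to 78.5 CPM (log2 fold change 0.91, adjusted p = 0.00712), and *Crebbp*, an acetyltransferase, fell in GMPs of UREΔ mice from 349 to 171 CPM (−1.07, adjusted p = 0.00342, both edgeR).

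Among the 7 genes of the LKB1 complex and the other AMPK kinases, 0 were called between the genotypes in LSKs or in GMPs by edgeR or DESeq2, and 0 had an unadjusted p under 0.05 in either. With the replicate block, 1 was called higher in UREΔ LSKs, beside 3.83% of all genes. It was *Camkk2* (log2 fold change 0.60, adjusted p = 0.0393, edgeR), which is named after its value was seen. *Strada*, the pseudokinase partner of LKB1, was not called in any comparison. Between cell types, 1 of the 7 was called higher in WT GMPs (*Cab39l*), and 1 higher and 1 lower in UREΔ GMPs, beside 27.3% and 21.8% of all genes called in either direction. The call of *Cab39l* was lost without replicate 3 of the WT LSKs. *Cab39*, which encodes the scaffold MO25 of the LKB1 complex, had 53.6 CPM in GMPs and 28.5 CPM in LSKs of UREΔ mice (log2 fold change 0.87, adjusted p = 0.0381, edgeR). This call was kept without replicate 2 of the LSKs and lost without any of the other 7 libraries (log2 fold changes from 0.79 to 1.23, adjusted p up to 0.10). *Camkk1*, which encodes a calcium-dependent kinase, fell in GMPs of UREΔ mice from 11.2 to 1.58 CPM (log2 fold change −2.87, adjusted p = 0.00172, edgeR). In WT mice it spread from 4.84 to 39.7 CPM in LSKs and from 0.0977 to 6.92 CPM in GMPs. Of a list of AMPK-related kinases, most of them also activated by LKB1, 10 of 14 were tested. Between the genotypes, 0 were called in LSKs, with 1 at an unadjusted p under 0.05, 1 called lower by DESeq2 and 2 called lower with the replicate block, beside 5.62% of all genes. In GMPs 1 of 10 was called lower, beside 3.63% of all genes. It was *Brsk1* (0.168 CPM in UREΔ and 1.12 CPM in WT, adjusted p = 0.0259, edgeR), whose call was lost without replicate 1, 2 or 4 of the UREΔ or 2 of the WT GMPs (adjusted p up to 0.0907). Between cell types, 1 of 10 was called higher in WT GMPs (*Melk*), and 2 higher (*Nuak2* and *Mark2*) and 1 lower (*Brsk1*) in UREΔ GMPs, beside 27.3% and 21.8% of all genes called in either direction. The call of *Melk* was lost without replicate 1 of the WT LSKs, that of *Brsk1* without replicate 1 or 4 of the UREΔ GMPs, and that of *Mark2* without any library but replicate 3 of the UREΔ GMPs. *Nuak2* had 40.4 CPM in GMPs and 7.98 CPM in LSKs of UREΔ mice (log2 fold change 2.29, adjusted p = 0.0112, edgeR).

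Downstream of AMPK, 30 genes of known substrates were followed. Between the genotypes, 1 of 30 was called in LSKs, beside 6.14% of all genes, and in GMPs 0 of 29 by edgeR or DESeq2, with 2 at an unadjusted p under 0.05. With the replicate block, 2 were called higher and 1 lower in LSKs, beside 3.83% and 5.62% of all genes. In GMPs these were 3 and 1, 4 of 29 beside 16.3% of all genes called in either direction with the block. *Rptor*, which encodes the mTORC1 subunit raptor, had 60.8 CPM in UREΔ and 23.1 CPM in WT LSKs on average, with overlap (log2 fold change 1.37, adjusted p = 0.0490, edgeR). Its call was lost without replicate 1, 3 or 4 of the UREΔ LSKs or replicate 1, 2 or 3 of the WT LSKs (log2 fold changes from 1.22 to 1.61, adjusted p up to 0.143). *Ulk1*, which starts autophagy, was called in 1 comparison, with 7.50 CPM in GMPs and 17.2 CPM in LSKs of UREΔ mice (−1.24, adjusted p = 0.0409, edgeR). That call was lost without replicate 1, 2 or 4 of the GMPs or replicate 1, 3 or 4 of the LSKs (log2 fold changes from −1.40 to −0.93, adjusted p up to 0.115). *Acaca* and *Tsc2*, through which AMPK slows fatty acid synthesis and mTORC1, were not called in any comparison. Between cell types, 3 of 30 were called lower and 1 higher in WT GMPs, and 3 lower and 2 higher in UREΔ GMPs, beside 27.3% and 21.8% of all genes called in either direction. With the replicate block these were 9 lower and 2 higher in WT and 5 lower and 2 higher in UREΔ. Over all genes the block called 40.9% in WT and 31.9% in UREΔ in either direction. *Foxo3* is in this list as well. *Ppargc1a*, a coactivator of mitochondrial genes, had 44 to 198 counts per LSK library and 0 to 7 counts per GMP library and was called lower in GMPs of both genotypes.

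In the list of sestrins, TSC and RHEB genes (10 genes), *Deptor*, which encodes an inhibitor of mTOR, was the 1 gene of 10 called between the genotypes, in LSKs beside 3.76% and in GMPs beside 3.63% of all genes called lower. It had 10.2 CPM in UREΔ and 37.4 CPM in WT LSKs, and 22.1 CPM in UREΔ and 77.5 CPM in WT GMPs. The log2 fold change was −1.90 in LSKs (SE 0.29, adjusted p = 0.00439) and −1.82 in GMPs (SE 0.22, adjusted p = 0.00138, both edgeR), and the groups did not overlap in either. The medians of these pathway lists lay between −0.26 and 0.22 in the genotype comparisons, where those of all genes were 0.00 and 0.01.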

How the data were processed

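Messenger RNA of sorted LSKs and GMPs was sequenced as low-input, unstranded, paired-end libraries without molecular identifiers, from up to 10 ng of RNA. The authors quantified reads with salmon and summed them to genes with tximport, and the deposited values are estimated counts per gene on GRCm38 (Salmon and the build are also named in the submitters' processing notes), while the annotation release is not given in the sources used here. They were rounded, filtered with filterByExpr, scaled by TMM and tested with edgeR 4.0.16 (quasi-likelihood, Benjamini-Hochberg adjustment, adjusted p under 0.05 and fold above 1.5) in R 4.3.3. CPM are TMM-scaled. Comparisons were UREΔ against WT in each cell type, GMP against LSK in each genotype, and their interaction over 16 libraries. Groups and replicate numbers came from the labels, which do not say what a number stands for. The replicate number was taken to pair libraries because each same-number pair correlated above 0.1 (0.237 to 0.711 over the comparisons), and the pairing therefore comes from the data. LSK and GMP libraries of the same genotype and number also matched in sex. They may come from the same mouse, and the main fits of GMPs against LSKs did not pair them. No replicates were near-identical (chi-square per degree of freedom at least 32.4).

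The genes and lists were chosen with earlier results of these data known. Named beside the 10 genes were *Spi1*, *Foxo6*, *Prkag3*, at most 4 called genes per list and comparison by smallest adjusted p (exceptions are said to be named after their values were seen), 8 genes named whatever their values (*Ulk1*, *Acaca*, *Tsc2*, *Rptor*, *Akt1*, *Akt2*, *Cab39* and *Strada*), and the 3 genes most like each called gene, and some items of this rule are not reported here. Exon lengths came from GENCODE gene models on GRCm38 and promoter windows from RefSeq GRCm38.p6. Alternatives were DESeq2 1.42.0, other size factors, no filter, no fold threshold, a joint fit, the replicate block, a Y-linked covariate, fits within pairs of numbers, and each library left out. The fits were also run on simulated data, whose outcome is not reported here. The depth of 20028302 to 29128858 counts limits genes such as *Prkaa2*, and intervals and floors cover counting error only. Protein sequences were not used here. P-values of the main fits measure the spread between the 4 libraries of a group, which includes differences that follow the replicate number. With the replicate block they measure the spread left after the number is fitted.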

Additional observations from a re-analysis of the deposited data

Results flagged for a closer look

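Within groups of 4, single libraries stood apart in 5 of 68 sets of values, where chance gives about 5%. Replicate 2 of the UREΔ GMPs had 4.85 CPM of *Foxo1* beside 2.14 to 2.46 CPM in the other UREΔ GMPs, so that *Foxo1* made up 12.5% of the FOXO transcripts there and 2.61% to 3.44% in the others. In the same library, *Prkab2* made up 3.27% of the β transcripts beside 1.45% to 1.68%. Replicate 3 of the WT GMPs had 2.59 CPM of *Foxo1* beside 2.28 to 2.33 CPM. Replicate 1 of the WT LSKs had a *Foxo4* share of 6.57% beside 2.68% to 3.30%.

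*Prkab2* differed between GMPs and LSKs in opposite directions in the pairs of the 2 genotypes, while the WT difference of 0.45 on the log2 scale was not called (edgeR, adjusted p = 0.367). The GMP library was higher than the LSK library of the same number in 4 of 4 WT pairs and in 0 of 4 UREΔ pairs. The test of the difference gave −2.09 on the log2 scale (edgeR, Benjamini-Hochberg adjusted p = 0.0648, or 0.0188 in the blocked fit).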

How the results depend on the processing

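Of the values of the 10 genes under the alternatives, 743 kept direction and side of the threshold, 35 lost and 8 gained a call, and 53 changed sign, while 661 of 832 values of the called list genes kept their call and 0 changed sign. The count of the 10 genes called was 1 in the joint fit and 2 with the replicate block in LSKs, where it had been 0. In GMPs it was 0 within replicates 2 and 3 in place of 1. Between GMPs and LSKs of UREΔ mice it was 3 with RLE size factors, 3 without a filter and 1 within replicates 2 and 3, in place of 5, and 4 with DESeq2, in the joint fit and with the Y-linked covariate. In WT either pair of replicate numbers gave 3 and the replicate block 5, in place of 4. The interaction count was 1 with DESeq2 and 1 with the replicate block. With each library left out, the counts ranged from 0 to 0 in LSKs, 1 to 1 in GMPs, 2 to 5 between cell types in WT, 2 to 5 in UREΔ, and 0 to 1 for the interaction. Apart from the block results given with *Foxo3*, *Prkag2*, *Stk11* and the *Prkab2* interaction, the replicate block changed no call of the 10 genes. Among all genes, DESeq2 called 677 higher and 955 lower in LSKs, where edgeR called 360 and 570, and 1112 and 887 in GMPs, where edgeR called 646 and 502.

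Every value that changed sign belonged to a difference that was not called. In LSKs between the genotypes, within replicates 2 and 3, these were *Foxo4* (0.35), *Prkaa1* (−0.038), *Prkaa2* (0.11) and *Prkag1* (−0.12), with *Stk11* at 0.054 within replicates 1 and 4 and *Prkaa1* at −0.0027 with the block. In GMPs, *Foxo3* was −0.0056 with DESeq2, −0.0048 with RLE, −0.0012 without a filter, −0.046 with the block and −0.16 within replicates 1 and 4. Within those replicates *Foxo1* was −0.10, *Prkab1* −0.081, *Prkag1* 0.0070 and *Prkag2* −0.079, and with the Y-linked covariate *Prkab1* was −0.024 and *Prkag2* −0.017. Between cell types in WT, *Prkaa1* was 0.027 with DESeq2, 0.015 with RLE and 0.033 within replicates 1 and 4, where *Prkab1* was 0.067. With libraries left out, the log2 fold change in LSKs ranged from −0.36 to 0.24 for *Foxo4*, −0.21 to 0.27 for *Prkaa1*, −0.23 to 0.25 for *Prkaa2*, −0.051 to 0.13 for *Prkag1* and −0.18 to 0.18 for *Stk11*. In GMPs it ranged from −0.084 to 0.40 for *Foxo1*, −0.18 to 0.19 for *Foxo3*, −0.13 to 0.16 for *Prkab1* and −0.084 to 0.084 for *Prkag2*, and between cell types in WT from −0.21 to 0.55 for *Foxo4*, −0.22 to 0.19 for *Prkaa1* and −0.31 to 0.012 for *Prkab1*. The cause of these changes was not tested.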
